A study of Mus musculus with 10 samples.

Results

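The cytosolic ribosomal proteins are the proteins that, with ribosomal RNA, make up the large and small subunits of the ribosome outside mitochondria. They were examined in inguinal white adipose tissue, a subcutaneous fat depot, of mice aged 20 months. Members were the protein-coding genes named Rpl or Rps followed by a number, together with Rplp0, Rplp1, Rplp2 and Rpsa, leaving out the Rps6k kinases and Rps19bp1. This rule gave 89 of the 31285 genes in the table, 55 with large subunit names and 34 with small subunit names. Of these, 77 were core members (46 large, 31 small), 7 were paralogs of core members and 5 carried pseudogene names although the table calls them protein-coding.

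The compared groups were 5 Ad-GHRKO libraries, from mice in which the growth hormone receptor gene Ghr was knocked out in adipose tissue (their genotype label reads GHR Knockdown), and 5 Flox libraries from the control mice. Both groups were kept on regular chow until the fat was taken at necropsy. The sources used here do not give the Cre driver, the sex of the animals or whether each library is a single animal, so p-values measure the spread between these libraries. The tissue was taken whole, so RNA came from adipocytes and from all other cells of the depot. Ghr (ENSMUSG00000055737, chr15:3317760-3583492, GRCm38) was at 16.6 ± 2.71 FPKM in Ad-GHRKO libraries and 93.5 ± 21.9 FPKM in Flox libraries (SD, n = 5 each). FPKM is fragments per kilobase of exon per M (mega) assigned fragments. Depth was 14.6 to 19.2 M assigned reads per library. Reads on a list of 26 skeletal muscle genes made up 19.0% in Ad-GHRKO 1 and 0.253% in Ad-GHRKO 5, with 7.54% in Flox 3 and 10.8% in Flox 5; in the remaining libraries they made up at most 0.0198%. The 10 adipocyte genes summed to 3944 to 10780 FPKM in Ad-GHRKO libraries and 7698 to 11830 FPKM in Flox libraries.

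Each ribosome holds a single copy of nearly every ribosomal protein, and cells make these proteins in matched amounts. In mammals most of their mRNAs begin with a terminal oligopyrimidine (TOP) tract, a C followed by a run of C and T, through which mTORC1 and Larp1 control how strongly they are translated. mTORC1 responds to insulin and to growth factors, and growth hormone acts on fat cells through the receptor that Ghr encodes.

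Nearly every ribosomal protein transcript had a lower mean in Ad-GHRKO fat, by a small amount, and no single one passed the test across all genes. Testing was limited to genes that reached 1 FPKM in 5 or more libraries, which kept 85 members. Of these, all 51 large subunit members and 33 of 34 small subunit members had a log2 difference, Ad-GHRKO minus Flox, below 0. Of all 12785 genes tested, 44.3% did. The median log2 difference was -0.33 for large subunit members and -0.30 for small subunit members, against 0.04 for all genes. With values rescaled to the same FPKM total in every library, 82 of 85 were below 0, with medians of -0.22 and -0.18 against 0.15 for all genes. With limma on log2(FPKM + 1) and Benjamini-Hochberg adjustment over all genes, 0 of the 85 members passed 0.05 in either direction, where 2.19% of all genes did and 1.42% were called lower. At an unadjusted p under 0.05, 22 large and 10 small subunit members were lower and 0 were higher, where 8.49% of all genes were lower. With the rescaled values these counts were 6 large and 2 small, where 4.61% of all genes were lower. The smallest adjusted p of a member was 0.104, for Rpl23a and Rpl37. In bulk tissue, fewer cells of a type and less RNA per cell cannot be told apart. The 10 macrophage genes all had log2 differences above 0 (median 0.42) and summed to 968 to 2501 FPKM in Ad-GHRKO and 662 to 1986 FPKM in Flox. The 5 tested red blood cell genes were all below 0 (median -0.53), and the list of 6 summed to 209 to 836 FPKM in Ad-GHRKO and 379 to 1220 FPKM in Flox. None of these 15 genes passed the threshold, and the ranges of the sums overlapped. Of the 10 adipocyte genes, 7 were below 0 (median -0.18), as were all 4 tested B cell genes (median -0.49). In these lists 0 genes passed. Medians of the other cell type lists lay on both sides of 0, from -0.70 (skeletal muscle) to 0.21 (plasma cell). In those lists 1 gene was called, lower, among the 7 tested pericyte and smooth muscle genes (median 0.17). The part of any cell type in the members' differences was not tested.

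Reads on the members, as a share of each library, varied less among Ad-GHRKO libraries than among Flox libraries. Their share was 1.87%, 1.80%, 1.99%, 2.02% and 1.99% in Ad-GHRKO 1 to 5, and 3.01%, 2.41%, 2.08%, 2.82% and 1.99% in Flox 1 to 5. The means were 1.94% ± 0.0926 in Ad-GHRKO and 2.46% ± 0.447 in Flox (SD, n = 5 each). Flox 1 and Flox 4 stood highest, and Flox 5 lay within the Ad-GHRKO range. Large subunit members took 1.06% ± 0.0452 of Ad-GHRKO reads and 1.36% ± 0.223 of Flox reads, and small subunit members took 0.872% ± 0.0507 of Ad-GHRKO reads and 1.10% ± 0.225 of Flox reads. The ratio of reads on core large to core small members stood at 1.22 ± 0.0294 in Ad-GHRKO libraries and 1.25 ± 0.0465 in Flox libraries, and the ranges overlapped.

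**Figure D1:**
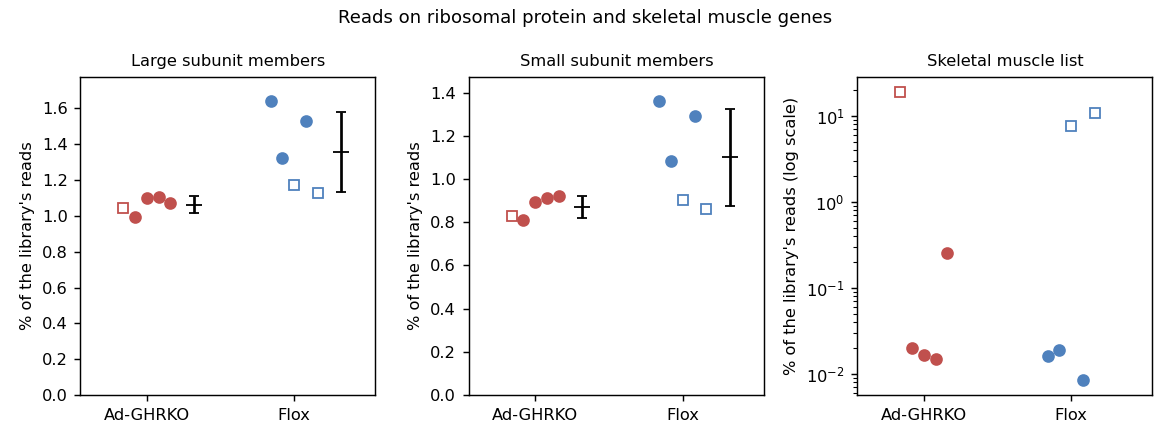
Share of each library's reads on large subunit members, small subunit members and the skeletal muscle list (the last on a log scale), with Ad-GHRKO left of Flox. Points are libraries, open squares are Ad-GHRKO 1, Flox 3 and Flox 5, and the black mark in the subunit panels is the mean ± SD of 5 libraries. Flox 1 and Flox 4 are highest for both subunits, and the open Flox squares lie near the Ad-GHRKO points.

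The Flox libraries with muscle reads were also those with low ribosomal protein levels. Flox 3 and Flox 5 were both below Flox 1, 2 and 4 in 68 of the 85 members, and Ad-GHRKO 1 was the lowest Ad-GHRKO library in 44. The highest of the 10 libraries was Flox 1 or Flox 4 for 74 members. The SD of log2 values was larger in Flox for 77 of 85 members, with a median SD of 0.16 in Ad-GHRKO and 0.30 in Flox. Without Ad-GHRKO 1, Flox 3 and Flox 5 these medians were 0.14 and 0.17. The same counts and SDs were not taken over all tested genes, so they do not set the members apart from other genes. FPKM is relative to the library total, so reads on muscle transcripts lower every other value of a library. With the muscle list taken out of the totals, the members' share was 2.31%, 1.80%, 1.99%, 2.02% and 1.99% in Ad-GHRKO 1 to 5, and 3.01%, 2.41%, 2.25%, 2.82% and 2.23% in Flox 1 to 5. Flox 3 and Flox 5 then still stood lowest among the Flox libraries, and Flox 5 and Flox 3 lay below Ad-GHRKO 1. Only reads on the 26 listed genes were taken out, so any other muscle RNA stayed in the totals. Dilution by that RNA was not measured. A lymph node lies in this depot. The 10 B cell genes summed to 8.42, 2.94, 11.6, 18.1 and 16.9 FPKM in Ad-GHRKO 1 to 5 and to 48.5, 18.8, 14.8, 7.64 and 7.24 FPKM in Flox 1 to 5. A B cell score averaged the 4 of these 10 genes that passed the filter. With this score as a covariate the medians were -0.26 for large and -0.19 for small subunit members. In that fit 15 members were lower at an unadjusted p under 0.05 (7.06% of all genes were), and 0 passed the adjusted threshold.

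**Figure D2:**
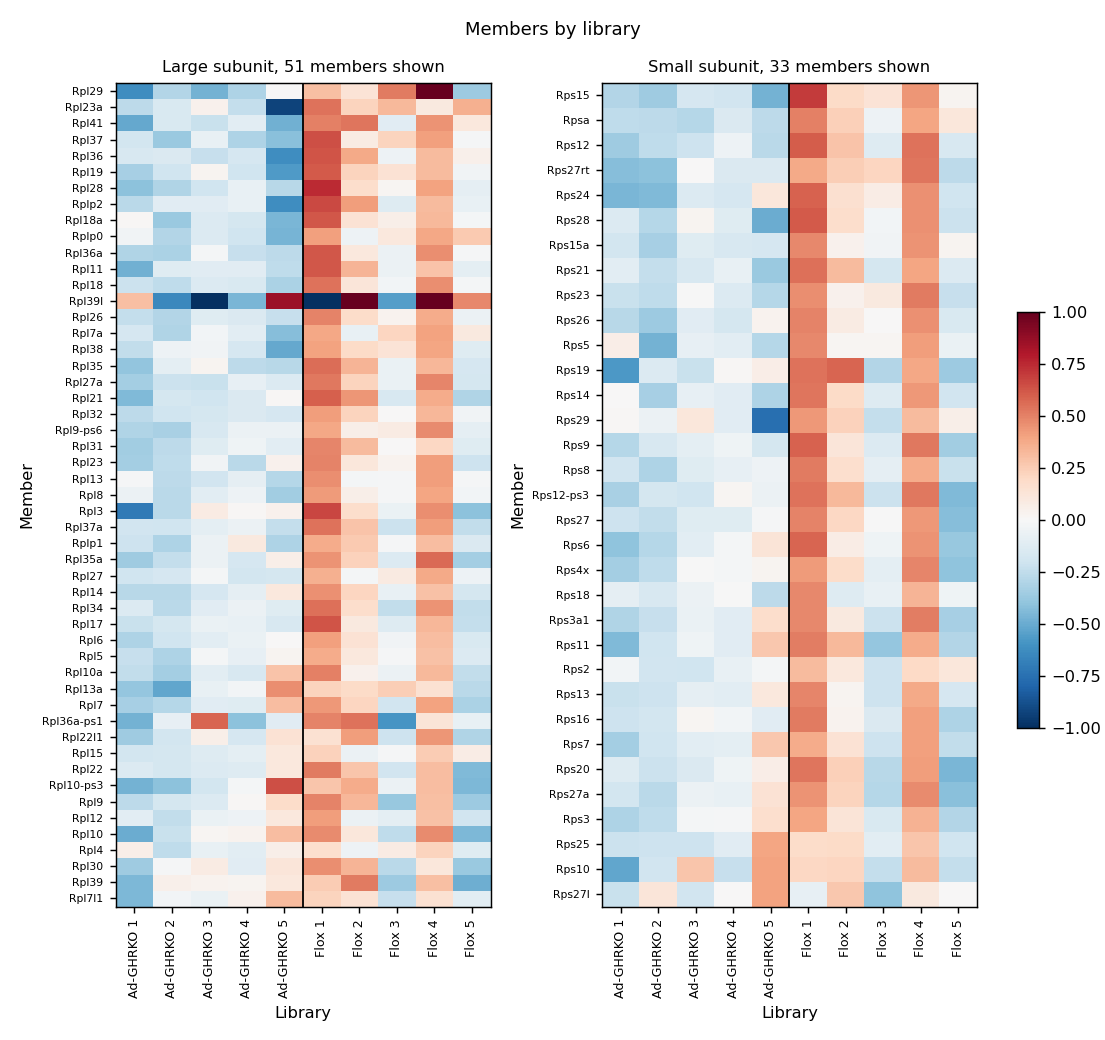
log2(FPKM + 1) of 84 of the 85 tested members in 10 libraries, each minus the member's own mean; red is above and blue below it, Ad-GHRKO left of the line and Flox right of it. Columns Flox 1 and Flox 4 are red for nearly all members, while Flox 3 and Flox 5 are pale or blue for many.

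Without Ad-GHRKO 1, Flox 3 and Flox 5, a choice made after seeing the data, 20 of 85 members fell past the adjusted threshold, 12 large and 8 small, where 3.12% of all genes were called lower. All 85 log2 differences were then below 0, where 43.2% of all genes were. The medians were -0.47 for large and -0.50 for small subunit members, against 0.05 for all genes. Every Ad-GHRKO library lay below every Flox library for 38 large and 25 small subunit members (74.1% of the 85). Of all genes 11.2% did so. Here 4 Ad-GHRKO libraries stood against 3 Flox libraries. Flox 3 and Flox 5 were both below the other Flox libraries in 68 of the 85 members. Leaving them out therefore widens the differences and the separation by itself. The large subunit members that fell were Rpl11, Rpl18, Rpl21, Rpl26, Rpl27a, Rpl32, Rpl34, Rpl35, Rpl35a, Rpl36, Rpl37a and Rpl41. Of these, Rpl35 (mean 15.2 FPKM) has 66.2% of its exon length covered by genes annotated on the opposite strand. Its reads may include theirs, since strand use in counting is not given. The small subunit members that fell included Rps12, Rps12-ps3, Rps14, Rps19, Rps21, Rps27 and Rpsa. Leaving out Ad-GHRKO 5 as well gave 6 large and 8 small subunit members lower, where 2.45% of all genes were, and 11 of these 14 were among the 20. A skeletal muscle score averaged the 7 of the 26 listed muscle genes that passed the filter. With all 10 libraries and this score as a covariate, 7 large and 4 small subunit members fell, where 4.07% of all genes did. Of these 11 members, 7 were among the 20. Weights for each library gave 19 large and 7 small subunit members lower, where 5.41% of all genes were. Leaving out any 1 library gave 0 members past the threshold. The count at an unadjusted p under 0.05 was 14 without Flox 1, 14 without Flox 4 and 48 without Flox 5, where 6.99%, 6.88% and 9.33% of all genes were lower, against 32 with all libraries.

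**Figure D3:**
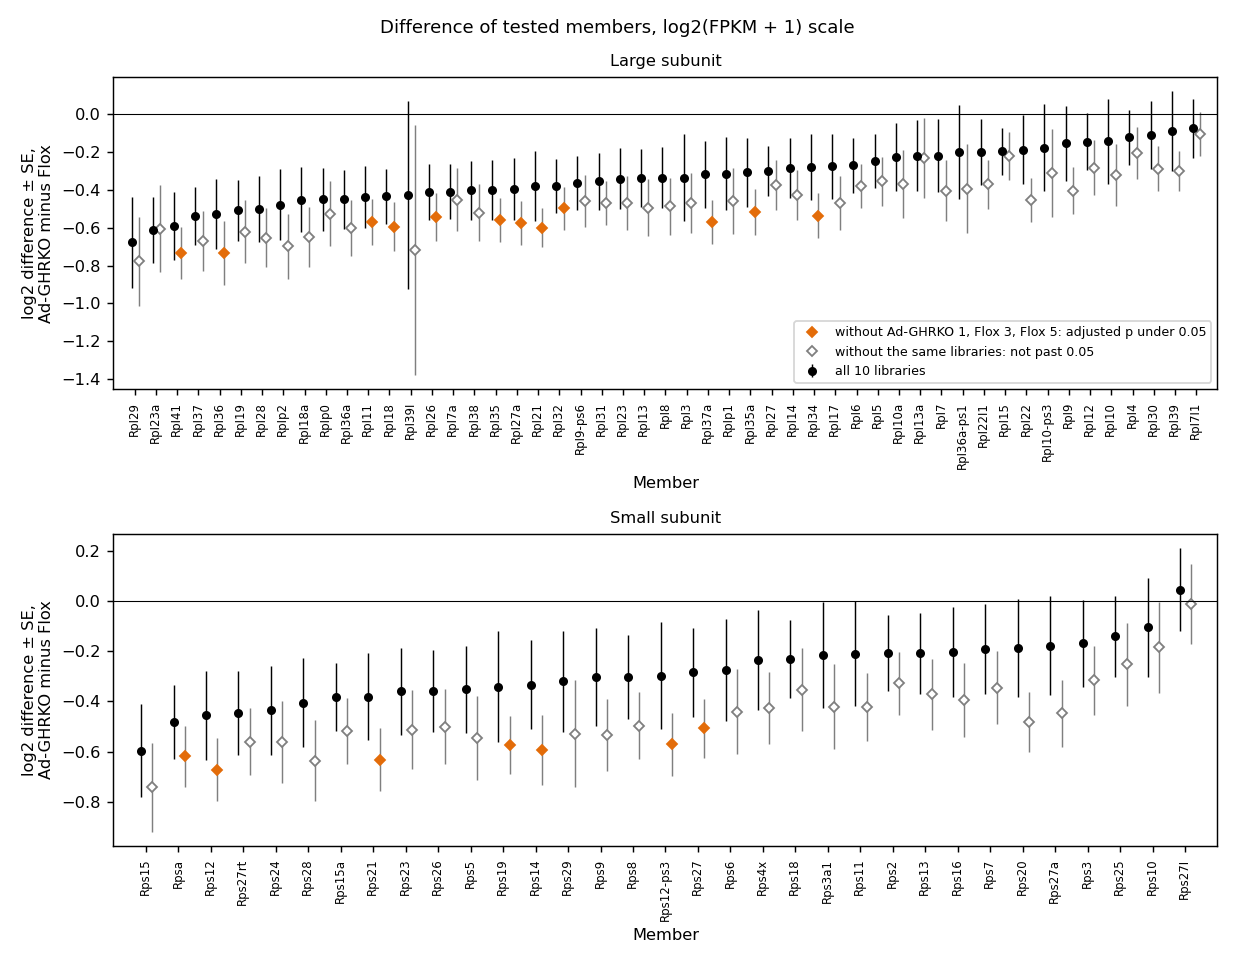
log2 difference ± SE of 84 of the 85 tested members, Ad-GHRKO minus Flox, by subunit and sorted by the value over all 10 libraries (black circles). Diamonds are the values without Ad-GHRKO 1, Flox 3 and Flox 5, filled where the adjusted p was under 0.05 (12 large, 7 small). All black circles but that of Rps27l lie below 0.

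Among large subunit members, the stalk proteins, which recruit elongation factors to the ribosome, were the most abundant. Rplp1 was the highest member of all, with a mean of 1200 ± 151 FPKM in Ad-GHRKO and 1497 ± 225 FPKM in Flox (log2 difference -0.31, adjusted p = 0.473, limma; 0.0066 with quantile normalization). Rplp0 (chr5:115559467-115563727), the protein that holds the stalk together, had 552, 463, 514, 494 and 411 FPKM in Ad-GHRKO 1 to 5 and 755, 548, 609, 742 and 680 FPKM in Flox 1 to 5. Only Ad-GHRKO 1 reached above a Flox library, Flox 2. The log2 difference of Rplp0 was -0.45 (SE 0.17, adjusted p = 0.209, limma), and Rplp2 gave -0.48 (adjusted p = 0.237, limma).

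Rpl41 (chr10:128548114-128549305), the smallest of the proteins, a basic peptide, had 245, 313, 300, 324 and 251 FPKM in Ad-GHRKO 1 to 5 and 495, 507, 323, 476 and 375 FPKM in Flox 1 to 5. The groups touched only at Ad-GHRKO 4 and Flox 3. Its log2 difference was -0.59 (SE 0.18, adjusted p = 0.130, limma), and -0.74 (SE 0.14, adjusted p = 0.0303, limma) without the 3 libraries above. It was the only member called by limma voom on recovered reads with all 10 libraries (adjusted p = 0.0492), where 2.04% of all genes were called lower.

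Rpl36 (chr17:56613416-56614243), of the large subunit, had 393, 397, 375, 392 and 286 FPKM in Ad-GHRKO 1 to 5 and 680, 572, 423, 548 and 454 FPKM in Flox 1 to 5. All Ad-GHRKO libraries were below all Flox libraries, with Ad-GHRKO 5 apart at the low end. The log2 difference was -0.53 (SE 0.18, adjusted p = 0.177, limma). Rpl37 (chr15:5116645-5119140) had 85.7, 75.1, 92.5, 78.5 and 72.5 FPKM in Ad-GHRKO 1 to 5 and 152, 103, 114, 129 and 96.5 FPKM in Flox 1 to 5. These groups did not overlap either, at a log2 difference of -0.54 (SE 0.15, adjusted p = 0.104, limma). The groups were apart, with Ad-GHRKO lower, for 8 large subunit members (Rpl8, Rpl11, Rpl18, Rpl23a, Rpl26, Rpl32, Rpl36 and Rpl37) and 4 small subunit members (Rpsa, Rps15 and Rps15a among them), 14.1% of the 85 where 3.35% of all genes were. Rpl11 binds Mdm2 together with Rpl5 and so links ribosome assembly to p53. Rpl29 had the lowest log2 difference of all, -0.68 (SE 0.24, adjusted p = 0.186, limma), from 60.7 ± 10.1 FPKM in Ad-GHRKO and 102 ± 38.9 FPKM in Flox, where Flox 4 alone reached 163 FPKM.

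In the small subunit, Rps15 (chr10:80292453-80294114), a protein of the subunit's head, had the lowest log2 difference of the subunit. It had 668, 639, 727, 716 and 590 FPKM in Ad-GHRKO 1 to 5 and 1327, 934, 899, 1115 and 834 FPKM in Flox 1 to 5. All Ad-GHRKO libraries were below all Flox libraries, and Flox 1 was the highest. Its log2 difference was -0.60 (SE 0.19, adjusted p = 0.135, limma), and its adjusted p without the 3 libraries was 0.0515.

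Rpsa (chr9:120127689-120132369), which also serves as a laminin receptor at the cell surface, had 209, 207, 204, 226 and 208 FPKM in Ad-GHRKO 1 to 5 and 355, 294, 241, 328 and 270 FPKM in Flox 1 to 5. The Ad-GHRKO libraries were close to each other and all lay below the Flox libraries. The log2 difference was -0.48 (SE 0.15, adjusted p = 0.131, limma), and -0.62 (SE 0.12, adjusted p = 0.0335, limma) without the 3 libraries. Rps6, the substrate of the S6 kinases, was at 219 ± 32.2 FPKM in Ad-GHRKO and 270 ± 71.3 FPKM in Flox (log2 difference -0.28, adjusted p = 0.561, limma). Rps19, which is mutated in many patients with Diamond-Blackfan anaemia, was at 56.0 ± 9.35 FPKM in Ad-GHRKO and 73.2 ± 22.1 FPKM in Flox (log2 difference -0.34, adjusted p = 0.495, limma). Without the 3 libraries Rps19 passed, at -0.57 (adjusted p = 0.0354, limma).

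**Figure D4:**
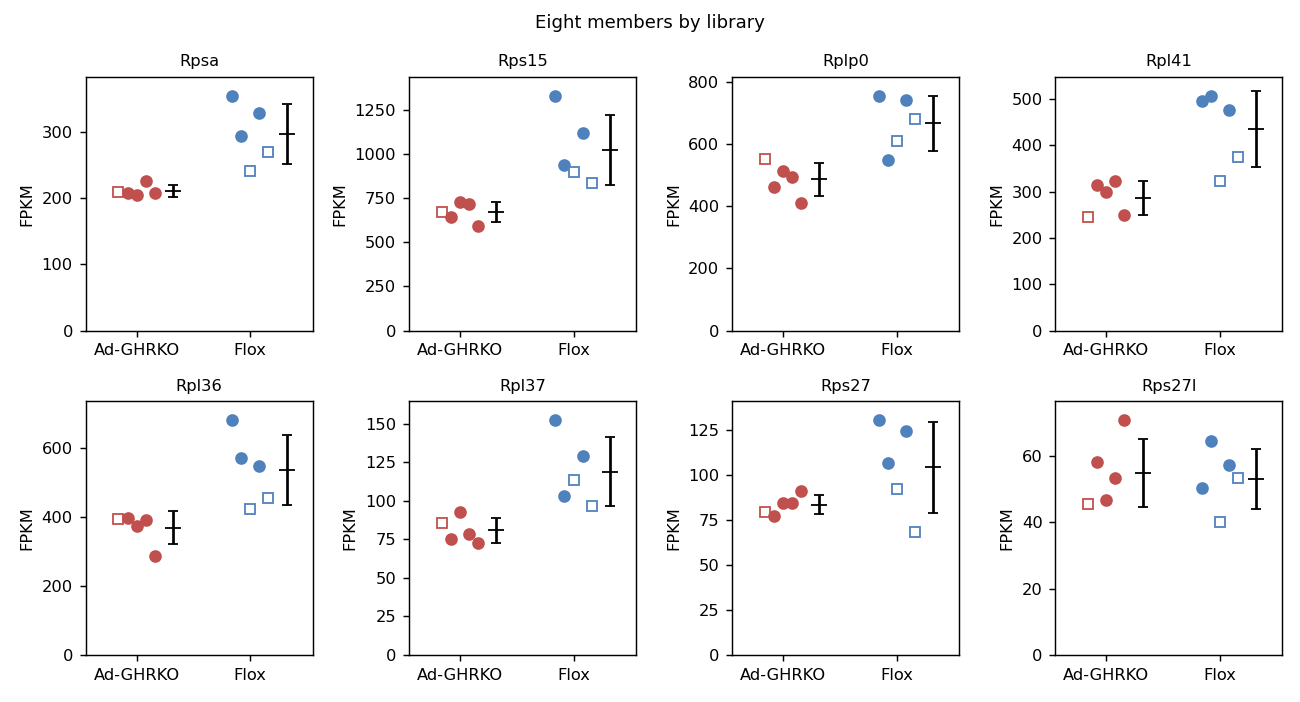
FPKM of 8 members in each library, Ad-GHRKO left of Flox. Open squares are Ad-GHRKO 1, Flox 3 and Flox 5, and the black mark is the mean ± SD of 5 libraries. The groups are apart for Rpsa, Rps15, Rpl36 and Rpl37, touch for Rpl41, and overlap for Rplp0, Rps27 and Rps27l.

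The paralogs differed in level and spread. Rps27l, a p53 target related to Rps27, had 45.6, 58.0, 46.6, 53.3 and 70.7 FPKM in Ad-GHRKO 1 to 5 and 50.3, 64.4, 40.1, 57.1 and 53.3 FPKM in Flox 1 to 5. The groups overlapped over most of their range, and its log2 difference, 0.05 (SE 0.17, adjusted p = 0.927, limma), was the only one above 0. It turned to -0.01 without the 3 libraries and to -0.05 with the GC trend removed. Rps27l stood at 65.6% ± 10.2 of the Rps27 level in Ad-GHRKO and 53.3% ± 16.1 in Flox (SD, n = 5 each), and these ranges overlapped. Rpl7l1 gave a log2 difference of -0.07 (0.042 with values rescaled to 1 total and 0.030 without Ad-GHRKO 1) and Rpl22l1 one of -0.20, neither past the threshold. Rpl39l, at 3.0 ± 2.25 FPKM in Ad-GHRKO and 4.73 ± 3.44 FPKM in Flox, had the widest spread of any tested member, from 0.835 FPKM in Flox 1 to 8.70 FPKM in Flox 2.

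Rpl3l, the paralog that takes the place of Rpl3 in heart and skeletal muscle, followed the muscle reads and not the genotype. It had 195, 0.159, 0.129, 0 and 2.83 FPKM in Ad-GHRKO 1 to 5 and 0.115, 0.102, 68.1, 0 and 126 FPKM in Flox 1 to 5. It was high only in the libraries with muscle reads, at 235% of Rpl3 in Ad-GHRKO 1, 123% in Flox 5 and 52.3% in Flox 3. It passed 1 FPKM in too few libraries to be tested. Rpl3, which lines the catalytic centre of the large subunit, had 83.0, 113, 144, 138 and 140 FPKM in Ad-GHRKO 1 to 5 and 217, 154, 130, 189 and 102 FPKM in Flox 1 to 5. It was lowest in Ad-GHRKO 1 and Flox 5, where Rpl3l was highest. Low values there were not particular to Rpl3. Ad-GHRKO 1 was the lowest Ad-GHRKO library for 44 of the 85 tested members, and Flox 5 the lowest Flox library for 59. Whether Rpl3l took the place of Rpl3 in these libraries was not tested.

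**Figure D5:**
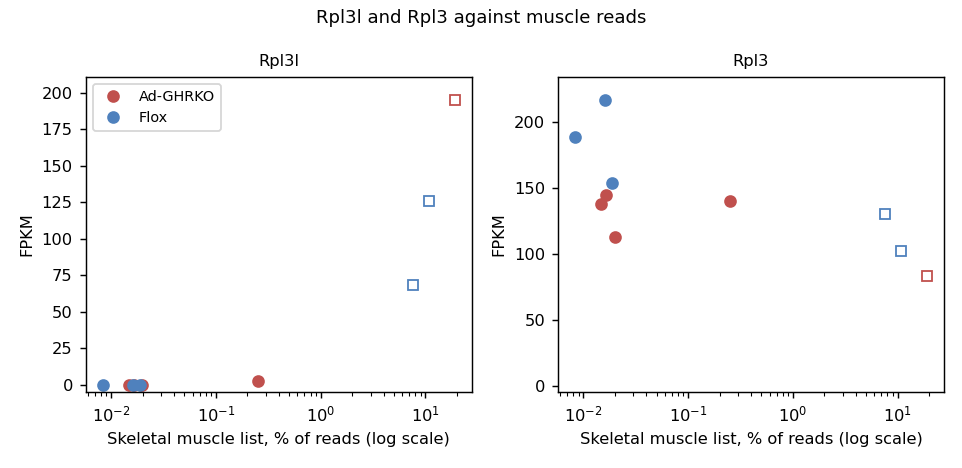
FPKM of Rpl3l (left) and Rpl3 (right) in 10 libraries against the percent of reads on the skeletal muscle list, on a log scale. Open squares are Ad-GHRKO 1, Flox 3 and Flox 5. Rpl3l is above 3 FPKM only in those, and Rpl3 is lowest in Ad-GHRKO 1 and Flox 5. Ad-GHRKO 1 is also the lowest of its group for 44 of the 85 tested members, and Flox 5 for 59.

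A few core members were listed far below the others. Rpl24 was at 0.361 ± 0.221 FPKM in Ad-GHRKO and 0.431 ± 0.140 FPKM in Flox, under the filter, and Rps10, Rpl13a, Rpl30 and Rpl23a averaged 1.33, 2.09, 4.95 and 9.37 FPKM over all libraries, where 47 members were at 100 FPKM or more. Genes annotated on the same strand in GENCODE M21 cover 47.0% of the exon length of Rpl24. Other annotated genes cover 28.7% of Rps10, 35.4% of Rpl13a, 24.8% of Rpl30 and 62.3% of Rpl23a. On the opposite strand of Rpl23a lies Tlcd1, which fell to 4.74 ± 1.74 FPKM in Ad-GHRKO, against 11.5 ± 3.06 FPKM in Flox (log2 difference -1.14, adjusted p = 0.0319, limma). Whether counting used strand is not given, so reads of Rpl23a and Tlcd1 cannot be told apart. The low values of these members are therefore uncertain as levels, and the order of levels also rests on exon lengths of 374 to 6270 bases.

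Pseudogene copies add to this. The table holds 185 genes with pseudogene names of this family, and those not called protein-coding took 4.64% to 6.67% as many reads as the members. Rps10-ps2, a processed copy of Rps10, was listed at 196 ± 20.6 FPKM in Ad-GHRKO and 246 ± 66.4 FPKM in Flox, far above Rps10 itself. Its log2 difference was -0.29 (adjusted p = 0.524, limma). Reads of such near-identical copies may be split by the counting, so each value alone is uncertain. Rps12-ps3, a member by its protein-coding label, was at 214 ± 20.1 FPKM in Ad-GHRKO and 272 ± 79.2 FPKM in Flox, and is uncertain for the same reason. With pseudogene reads added to their parents the medians were -0.33 for large and -0.30 for small subunit members, and 0 members passed.

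The start of the transcript could be read for 64 of the 89 members in RefSeq promoter windows of build GRCm38.p6. A C followed by 4 bases, each C or T, at the annotated start was found in 14 of these 64 genes, 7 large and 7 small, and in 18.4% of their windows, against 2.51% of all windows. The motif CCGGAAG, the core bound by ETS factors such as GABP, stood on either strand in 35.5% of member windows, against 8.86% of all windows. It was searched over the whole window and may overlap the start. The median log2 difference was -0.31 for 13 core members with the tract and -0.32 for 43 without it. A match describes the letters at an annotated start only.

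The following stretches run from 12 bases before the annotated start to 18 bases from it, with the tract in capitals where there is one. They show the tract in large and small subunit members, and members described above without the tract at the annotated start. Rps27 and its retrogene Rps27rt are near-identical from the start on, apart from a small shift, and differ in the bases before it.
Rpl28: cctctcgtgtctCTCTTTCCgtctccggcc
Rplp2: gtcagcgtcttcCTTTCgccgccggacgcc
Rps15a: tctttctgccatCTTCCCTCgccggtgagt
Rps6: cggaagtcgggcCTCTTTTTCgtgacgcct
Rps27: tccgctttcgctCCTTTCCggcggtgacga
Rps27rt: acttatcccttgCTTTCCggcggtgacgac
Rpl41: acgggccggctcggaagtgacgacaccgag
Rpsa: ggttatttaaggacgtcatttccggccgcc
Rpl3l: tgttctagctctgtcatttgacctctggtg
They lie at chr7:4792953-4792982 (plus strand) for Rpl28, chr7:141447639-141447668 (plus) for Rplp2 and chr7:118116130-118116159 (minus) for Rps15a. Rps6 is at chr4:86857350-86857379 (minus), Rps27 at chr3:90213631-90213660 (minus) and Rps27rt at chr9:114982722-114982751 (minus). Rpl41 is at chr10:128549151-128549180 (minus), Rpsa at chr9:120127754-120127783 (plus) and Rpl3l at chr17:24727814-24727843 (plus).

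Of these, Rpl28 gave a log2 difference of -0.50, Rps15a -0.38 and Rps6 -0.28, none past the threshold. Rps27rt stood at 93.8% ± 9.21 of Rps27 in Ad-GHRKO and 105% ± 9.24 in Flox, and reads of the pair may be shared between them.

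Medians of the other lists of translation genes lay on both sides of 0. Of ribosomal proteins outside the name rule, Fau was at 276 ± 20.0 FPKM in Ad-GHRKO and 361 ± 116 FPKM in Flox (log2 difference -0.33, adjusted p = 0.503, limma). Rack1 was at 102 ± 9.09 FPKM in Ad-GHRKO and 118 ± 19.0 FPKM in Flox (log2 difference -0.21, adjusted p = 0.538, limma). Elongation factors and other known TOP mRNAs had a median of -0.18, with 0 of 16 past it and 12 below 0. Of 8 snoRNA host transcripts 0 passed (median -0.20). Initiation factors (0 of 30, median 0.11), ribosome assembly factors (0 of 50, median 0.12) and RNA polymerase I genes (0 of 13, median 0.11) had medians above 0. In the mTORC1 list 1 of 18 was called: Eif4ebp1, an inhibitor of initiation that mTORC1 switches off.

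Eif4ebp1 had 76.7, 99.3, 85.2, 104 and 72.5 FPKM in Ad-GHRKO 1 to 5 and 182, 194, 158, 151 and 148 FPKM in Flox 1 to 5. All Ad-GHRKO libraries were below all Flox libraries, and its log2 difference was -0.92 (SE 0.15, adjusted p = 0.0115, limma). Larp1 and Rps6kb1, which act on TOP mRNAs and on Rps6, gave log2 differences of 0.07 and 0.15, neither past the threshold. The proteins of the mitochondrial ribosome, encoded by a separate family, had a median of -0.28 with 2 of 76 called lower, Mrps15 and Mrpl12, and 72 below 0. Complex I genes had a median of -0.46 with 1 of 45 called lower, Ndufv3, where 1.42% of all genes were called lower. Without the 3 libraries 11 mitochondrial ribosomal protein genes and 17 complex I genes were called lower, where 3.12% of all genes were. The part of muscle reads, B cell genes and library scaling in the members' differences was not tested beyond the values given.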

How the data were processed

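Members, lists and alternatives were chosen with earlier results of these data known. The authors deposited FPKM per gene, 1 column per library, per the file headers. Polyadenylated RNA was used, per the labels' protocols. No source used here gives the aligner or counting tool. The submitters' processing notes name GRCm39, but 99.59% of genes had the GRCm38 coordinates of GENCODE M21, so coordinates are GRCm38. Whole reads came out for 99.1% to 99.3% of values (tolerance 0.01) with M21 exon lengths. They gave the read shares and voom. The fit held 12785 genes that reached 1 FPKM in 5 or more libraries. It used limma 3.58.1 (R 4.3.3) and log2(FPKM + 1), two-sided, with a mean-variance trend and Benjamini-Hochberg adjustment. This scale understates changes of low genes. The fit was also run on simulated data. That run had changes larger than the members' medians and no muscle-rich libraries, so it does not show how such shifts are called. A few genes are counted but not reported here by name. Named were Rplp0, Rpsa, and, per subunit, the members of smallest p, highest level and largest spread, and the paralogs; Rplp2, Rpl3, Rpl11, Rpl28, Rps6 and the low-listed members were chosen after their values were seen. Alternatives changed pseudocount, filter, scaling, covariates, weights, test, length and GC trends, pseudogene counting and libraries.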

Additional observations from a re-analysis of the deposited data

Results flagged for a closer look

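Of 72 groups of 5 libraries checked, 5 held a library whose gap to its nearest neighbour was over 0.71 of the range; chance flags about 1 in 20. Rpsa was at 226 FPKM in Ad-GHRKO 4, against 204 to 209 in the other Ad-GHRKO libraries. Rpl36 was at 286 FPKM in Ad-GHRKO 5, against 375 to 397. Reads on core large over core small subunit members stood at 1.17 in Ad-GHRKO 5, against 1.23 to 1.24. Rpl3l was at 195 FPKM in Ad-GHRKO 1, against 0 to 2.83, and the skeletal muscle list took 19.0% of its reads, against 0.0148% to 0.253%.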

How the results depend on the processing

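Under 28 alternatives, members past the adjusted threshold were 0 with all 10 libraries (limma) and stayed at 0 except as follows: 7 large and 4 small with the muscle score, 19 and 7 with array weights (5.41% of all genes called lower), 1 large and 0 small with voom, 12 and 8 without the 3 muscle-rich libraries, and 6 and 8 without 4. In each leave-one-out fit 0 passed, and 14 to 48 were lower at an unadjusted p under 0.05, against 32 with all libraries and 8 with values rescaled to a fixed total, the fewest of any alternative. All genes changed numbered 280 (99 higher, 181 lower) with all libraries. They were 117 with no filter, 551 with median ratio scaling, 565 with quantile normalization, 492 with totals without muscle genes, 843 with the muscle score, 1695 with array weights (1003 higher, 692 lower), 457 with voom, 532 with the length trend removed, 563 with the GC trend removed, 777 without 3 and 675 without 4 libraries; the cause was not tested. Leaving out 1 library gave 116 to 1185, the highest without Ad-GHRKO 1 (778 higher, 407 lower). Rescaling to a fixed total (141 higher, 93 lower) moved the median of all genes to 0.15, and the members' medians were then -0.22 and -0.18. Signs turned for Rplp1 (0.0066, quantile), Rpl7l1 (0.042, fixed total; -0.16 to 0.030 leaving out 1 library) and Rps27l (-0.049 with the GC trend removed, -0.049 to 0.12 leaving out 1 library, -0.012 without 3 and -0.12 without 4 libraries). Among other tested members, values above 0 came out for Rpl4 (0.039, quantile), Rpl30 (0.0080, B cell score), Rps10 (0.011 without Ad-GHRKO 1) and Rpl39 (0.00017 with the B cell score, 0.029 with a fixed total, 0.019 with the length trend removed, 0.011 without Ad-GHRKO 1 and 0.028 without Flox 2), none past the threshold. Same-numbered libraries did not all deviate together (r -0.49, 0.39, -0.03, 0.28 and -0.26). These values cannot show whether the numbers mark pairs, which no source used here states. The replicate block gave 85 genes and 0 members. Depth limits Rpl24, Rpl36al and Rpl9-ps1, with 7.20, 6.90 and 0.200 reads a library on average.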
